A study of Mus musculus with 9 samples.

Results

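The 8 genes described here are listed as Notch effectors and were chosen by name. They are the bHLH genes Hes1, Hes5, Hes6, Hes7, Hey1, Hey2 and Heyl, and the feedback gene Nrarp. All 8 were found by gene symbol among the 18193 genes measured, through 13 probe sets of the 45101 on the array. Where a gene had several probe sets, the main one was that with the highest mean over the 9 arrays. RNA came from back skin cells of 3 mice at postnatal day 2, numbered 2, 4 and 5, that were sorted by flow cytometry, with 1 array per mouse and gate. Gate R1 held GFP-CD133- cells, taken here as a pool of dermal cells outside both papilla gates. Its keratinocyte and leukocyte markers were on average the highest of the 3 gates. Gate R2 held GFP-CD133+ cells, labelled as dermal papillae of zigzag hairs. Gate R3 held GFP+CD133+ cells, labelled as dermal papillae of guard, awl and auchene hairs. Prom1 encodes CD133, and the GFP of this sort marks cells with an active Sox2 locus, by what is known of the study. The 3 gates share the same animals, age and sort, and no treatment is named, and the sources used here do not give strain or sex. Each gate is defined by surface CD133 and GFP alone, so it can hold any cell with that combination.

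A dermal papilla is a small mesenchymal condensation that sits under each follicle and instructs the epithelium above it. In Notch signalling a ligand on a neighbouring cell (Delta-like or Jagged) leads to cleavage of the receptor, whose intracellular part joins the DNA-binding protein RBPJ and Mastermind on target genes. Many Hes and Hey genes are classical targets, and their proteins are short-lived repressors that recruit Groucho (Tle) corepressors. Hes6 differs, as it is known to oppose Hes1. Nrarp is a small ankyrin protein, itself a target, that dampens the pathway. In skin, Notch is best known for differentiation of epidermis and hair matrix and for blood vessels, and it also acts in the papilla.

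The values are log2 expression values, so a difference of 1 is a 2-fold difference. The upper end of the olfactory receptor probe sets, genes that skin is not known to use widely, served as a guide to background (their 95th percentile, 5.14 to 5.46 over the arrays). Of the 8 genes, 7 lay above it on all 9 arrays and Hes7 did not. Array medians ran from 6.13 to 6.20. The gate genes followed the sort in part. Prom1 averaged 7.43 in R1, 11.85 in R2 and 10.32 in R3, and Sox2 4.19, 7.08 and 10.66. Both CD133+ gates exceeded R1 in Prom1, and the GFP+ gate R3 had the most Sox2. Yet Sox2 also differed between the GFP- gates, with 3 arrays of R2 and 0 of R1 over the guide. Prom1 differed between the CD133+ gates as well, by -1.54 from R2 to R3. Of 18 papilla markers, 12 were higher in R2 and 18 in R3 than in R1, against 6.89% and 7.90% of all genes. The list includes Prom1, whose rise in both gates is tied to the sort itself, and Sox2, where this holds for the GFP+ gate R3. RNA quality was read from beta-actin: its 3' probe set exceeded its 5' one by 0.04 to 0.07 in R1 and by 0.11 to 0.22 in R2 and R3, and the part of this in the results was not tested. In sorted bulk RNA, fewer cells of a type and less RNA per cell cannot be told apart. Having only 3 arrays in each gate limits the precision.

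The sequence around the transcription start was searched for 1 exact core of letters that RBPJ is known to bind. Variants of the core and stretches farther away were not searched, so a gene without a match can still have a site. RefSeq windows (GRCm38.p6, 250 bases before the start and 50 after it) were at hand for 5 of the 8 genes, in 6 windows, and not for Hes1, Hey1 and Heyl. The core GTGGGAA or its reverse complement TTCCCAC, searched on both strands, was present in the windows of Hes5, Hey2 and Hes7 and not in those of Hes6 and Nrarp. Hes5 and Hey2 each held 2 matches. Over all 32851 windows of that length in the table, 6.38% held at least 1 match and 0.256% held 2 or more. The 5 matches are printed 5′ to 3′ on the gene's strand, with the core in capitals and 10 bases on each side; positions count from the start, with -1 the last base before it.
Hes5, -226 to -220 (chr4:154960687-154960713, plus strand): ggcgagcgcgTTCCCACagcccggaca
Hes5, -83 to -77 (chr4:154960830-154960856, plus strand): gccgccgagtGTGGGAAcggccgcggc
Hey2, -207 to -201 (chr10:30842974-30843000, minus strand): cgcggtggcaTTCCCACgcctctgcca
Hey2, -4 to 3 (chr10:30842771-30842797, minus strand): gggctgcagcGTGGGAAagaacctcca
Hes7, -180 to -174 (chr11:69120263-69120289, plus strand): ctcccctcacTTCCCACatttggggct
In both Hes5 and Hey2 the match nearer the start reads in the direction of the gene and the farther one in the opposite direction, while the flanking bases differ.

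The Hey2 and Nrarp stretches are shown whole up to the start. They were picked after the values were seen, as genes with opposite orders of gates. In Hey2, capitals mark the RBPJ core that lies fully before the start. In Nrarp, capitals mark CACGTG, the E-box that Hey and related bHLH proteins are known to bind, present in 7.15% of all windows; its letters can overlap the RBPJ core. Nrarp was the only one of these 5 genes with an E-box in its window. A match is a description of letters and shows no binding, and no relation between these genes was tested.
Hey2 (chr10:30842784-30843033, minus strand): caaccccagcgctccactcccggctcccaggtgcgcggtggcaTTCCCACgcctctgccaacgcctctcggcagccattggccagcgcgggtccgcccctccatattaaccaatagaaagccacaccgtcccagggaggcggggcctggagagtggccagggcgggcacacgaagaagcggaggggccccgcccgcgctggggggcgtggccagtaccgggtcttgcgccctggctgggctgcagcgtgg
Nrarp (chr2:25180508-25180757, plus strand): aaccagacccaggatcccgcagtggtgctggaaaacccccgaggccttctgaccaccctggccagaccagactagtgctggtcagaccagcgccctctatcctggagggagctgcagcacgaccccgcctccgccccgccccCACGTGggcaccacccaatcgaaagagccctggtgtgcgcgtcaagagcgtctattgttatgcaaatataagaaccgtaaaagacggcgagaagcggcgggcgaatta

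The 8 genes did not share one pattern over the gates. Hey2 rose stepwise from R1 to R2 to R3. Hey1 and Hes5 were higher in both papilla gates than in R1, with Hes5 highest in R2. Heyl and Hes1 were higher in R2 than in both other gates, and Nrarp fell stepwise from R1 to R2 to R3. Hes6 and Hes7 were not called in any comparison. Differences were tested with limma across all genes and called at a Benjamini-Hochberg adjusted p under 0.05.

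**Figure D1:**
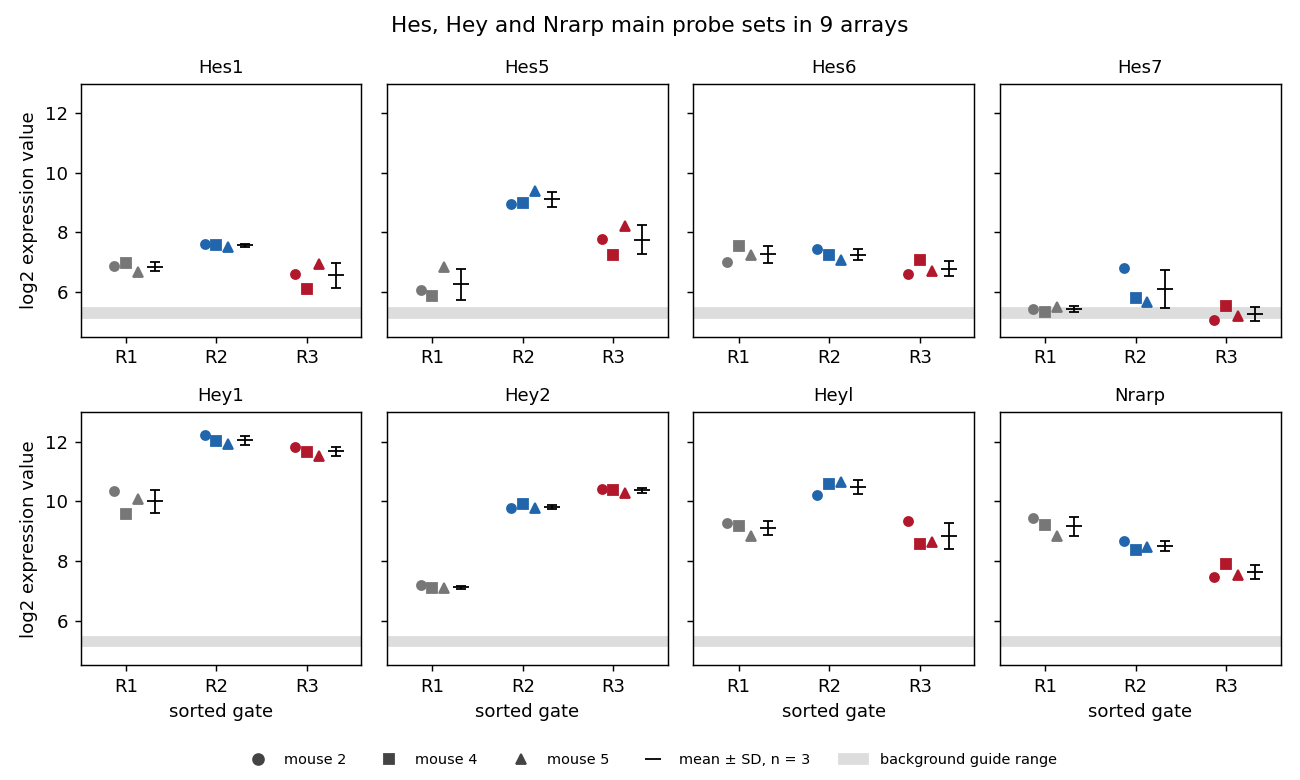
Log2 expression value of the main probe set of each gene (vertical axis) in gates R1, R2 and R3 (horizontal axis); each mark is 1 array, its shape the mouse, with the mean ± SD (n = 3) beside it, and the grey band is the background guide (5.14 to 5.46). Hey2 climbs over the gates from 7.12 to 9.82 to 10.37, Nrarp descends from 9.17 to 8.50 to 7.63, and Hes7 in R1 and R3 lies in or close to the band.

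Hey2, a repressor known from heart and artery development, had the smallest spread of the 8. Its log2 value in mice 2, 4 and 5 was 7.18, 7.10 and 7.09 in R1, 9.77, 9.90 and 9.78 in R2, and 10.41, 10.40 and 10.29 in R3. No array of a gate overlapped with another gate. Hey2 was 6.46-fold higher in R2 than in R1 (log2 change 2.69, standard error 0.11, limma adjusted p = 2.71e-06) and 9.47-fold higher in R3 than in R1 (3.24, standard error 0.11, adjusted p = 1.95e-06). From R2 to R3 it rose by a further 1.46-fold (0.55, 95% interval 0.31 to 0.80, adjusted p = 0.0190), by 0.51 to 0.64 in the 3 mice. That last step missed the threshold without the R2 array of mouse 2 (0.0721), the R2 array of mouse 5 (0.0589), the R3 array of mouse 2 (0.0663) or the R3 array of mouse 4 (0.0735; all limma adjusted p), with the change at 0.53 in each; the adjusted p ran from 0.0112 to 0.0735 over the alternatives.

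Hey1, the closest relative of Hey2 in this list, also known from arteries, was high in both papilla gates. Its values in mice 2, 4 and 5 were 10.34, 9.58 and 10.07 in R1, 12.23, 12.02 and 11.92 in R2, and 11.83, 11.66 and 11.54 in R3. All R1 arrays lay below all others, and the lowest R2 array lay just above the highest R3 array. Hey1 was 4.16-fold higher in R2 than in R1 (log2 change 2.06, standard error 0.19, limma adjusted p = 0.000151) and 3.20-fold higher in R3 than in R1 (1.68, standard error 0.19, adjusted p = 0.000341). Between R3 and R2 it differed by -0.38 (95% interval -0.81 to 0.06, adjusted p = 0.353), which was not called, although each mouse had a difference between -0.40 and -0.35.

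Heyl, a Hey family member known from vascular smooth muscle, stood out in R2. Its main probe set read 9.29, 9.19 and 8.83 in R1, 10.22, 10.60 and 10.64 in R2, and 9.35, 8.57 and 8.64 in R3. Each R2 array exceeded each array of R1 and R3, which overlapped. Heyl was 2.62-fold higher in R2 than in R1 (log2 change 1.39, standard error 0.23, limma adjusted p = 0.00358) and fell 3.11-fold from R2 to R3 (-1.64, standard error 0.23, adjusted p = 0.00290). R3 differed from R1 by -0.25 (95% interval -0.76 to 0.26, adjusted p = 0.515). Both other Heyl probe sets gave the same picture: both were higher in R2 than in R1 and lower again in R3 (limma adjusted p from 0.00201 to 0.00386 over all probe sets). The second, 1438886_at, was 3.32-fold higher in R2 than in R1 and fell 3.31-fold from R2 to R3. The third, 1419303_at, averaged 5.93 in R2 and was below the background guide on every R1 and R3 array, so no fold is given.

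Hes5, a Hes gene known from neural progenitors, rose from R1 to R2 and was intermediate in R3. Its main probe set read 6.08, 5.86 and 6.84 in R1, 8.96, 8.99 and 9.41 in R2, and 7.78, 7.26 and 8.22 in R3. The gates did not overlap, and R3 lay between R1 and R2. It was 7.26-fold higher in R2 than in R1 (log2 change 2.86, standard error 0.30, limma adjusted p = 0.000266) and 2.82-fold higher in R3 than in R1 (1.5, standard error 0.30, adjusted p = 0.00706). From R2 to R3 it fell 2.58-fold (-1.36, standard error 0.30, adjusted p = 0.0309).

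The R3 to R2 difference of Hes5 missed the threshold without the R2 array of mouse 2 (0.0729), the R2 array of mouse 4 (0.0759), the R2 array of mouse 5 (0.0940), the R3 array of mouse 2 (0.0856) or the R3 array of mouse 4 (0.103), and after quantile normalization again (0.0568); the limma adjusted p ran from 0.00281 to 0.103. The main Hes5 probe set, 1456010_x_at, is of a type whose probes can also match other transcripts, as is the main one of Hes6. The other one, 1423146_at, read 6.34, 6.0 and 6.58 in R1, 8.07, 8.48 and 8.19 in R2, and 6.78, 6.84 and 6.84 in R3. It was 3.83-fold higher in R2 than in R1 (adjusted p = 0.000177) and fell 2.69-fold from R2 to R3 (adjusted p = 0.00167). Its rise from R1 to R3 was smaller, at 1.42-fold, and was not called (adjusted p = 0.0798). The probe sets thus differed in whether R3 exceeded R1 past the threshold.

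Hes1, the most widely used Notch target of the family, moved least among the called genes that peaked in R2. It read 6.88, 6.99 and 6.68 in R1, 7.61, 7.59 and 7.52 in R2, and 6.61, 6.11 and 6.95 in R3. Every R2 array exceeded every other array, and R1 and R3 overlapped. It was 1.65-fold higher in R2 than in R1 (log2 change 0.72, standard error 0.20, limma adjusted p = 0.0409). The call was lost with the mouse as a fixed block (adjusted p = 0.0665), without any single R1 array (mouse 2, 0.0909; mouse 4, 0.0670; mouse 5, 0.114) or R2 array (0.106, 0.110 and 0.0822 for mice 2, 4 and 5), and without the R3 array of mouse 2 (0.0576). The adjusted p ran from 0.0132 to 0.114 over the alternatives.

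From R2 to R3 Hes1 fell 2.02-fold (-1.02, standard error 0.20, limma adjusted p = 0.0177). This step missed the threshold without the R2 array of mouse 2 (0.0655), the R2 array of mouse 4 (0.0637) or the R3 array of mouse 2 (0.0518), where the adjusted p ranged from 0.00702 to 0.0655. R3 differed from R1 by -0.29 (95% interval -0.74 to 0.15, adjusted p = 0.361), with 2 mice below and 1 above. In R3 the Hes1 arrays spread more than in R2 (SD 0.42 against 0.05), and mouse 4 was the lowest.

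Nrarp had the reverse order of gates to Hey2. Its main probe set read 9.46, 9.22 and 8.84 in R1, 8.67, 8.36 and 8.47 in R2, and 7.47, 7.90 and 7.53 in R3. The gates did not overlap, with R1 highest and R3 lowest in each mouse. Nrarp was 2.91-fold lower in R3 than in R1 (log2 change -1.54, standard error 0.19, limma adjusted p = 0.000470). It fell 1.82-fold from R2 to R3 (-0.87, standard error 0.19, adjusted p = 0.0295) and 1.60-fold lower in R2 than in R1 (-0.67, standard error 0.19, adjusted p = 0.0440).

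The smaller Nrarp steps were less stable. The R2 to R1 call was lost with the mouse as a fixed block (adjusted p = 0.0521), without the R1 array of mouse 2 (0.134), the R1 array of mouse 4 (0.114), the R2 array of mouse 2 (0.0631), the R2 array of mouse 4 (0.140), the R2 array of mouse 5 (0.105), the R3 array of mouse 2 (0.0542) or the R3 array of mouse 5 (0.0556). It was also lost on the 6 arrays of these gates alone (0.0611), with the mean of both probe sets (0.174) and with probe sets tested singly (0.0540); the adjusted p ran from 0.0199 to 0.174. The R3 to R2 call was lost without the R2 array of mouse 2 (0.107), the R2 array of mouse 4 (0.0619), the R2 array of mouse 5 (0.0709), the R3 array of mouse 2 (0.101) or the R3 array of mouse 5 (0.0808), after quantile normalization again (0.0548) and with the mean of both probe sets (0.0970), in a range of 0.0154 to 0.107. The other Nrarp probe set, 1417986_at, averaged 8.31 ± 0.73 in R1, 7.93 ± 0.33 in R2 and 7.25 ± 0.28 in R3 (SD, n = 3). It had the same order of means, but none of its differences was called (adjusted p = 0.0625 for R3 against R1).

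Hes6, which is known to oppose Hes1, read 7.0, 7.56 and 7.26 in R1, 7.44, 7.23 and 7.09 in R2, and 6.61, 7.07 and 6.71 in R3. R1 and R2 overlapped widely, with a difference of -0.02 (95% interval -0.43 to 0.39, limma adjusted p = 0.960). R3 was the lowest gate by mean, at -0.46 against R2 (adjusted p = 0.222) and -0.48 against R1 (adjusted p = 0.105), in 3 of 3 mice each time. The second Hes6 probe set, 1452021_a_at, averaged 5.09, 5.15 and 5.04 in R1, R2 and R3, with 1 array of each gate over the guide, and so gave no measure of the gene.

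Hes7, known from the clock of the embryonic somites, was dim: it read 5.43, 5.32 and 5.51 in R1, 6.82, 5.81 and 5.65 in R2, and 5.07, 5.54 and 5.21 in R3. It was over the background guide on 3 arrays of R2, 2 of R1 and 1 of R3. R2 exceeded R1 by 0.67 (95% interval 0.05 to 1.29, limma adjusted p = 0.157), and mouse 2 alone gave a difference of 1.39, against 0.49 and 0.13 in the others.

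**Figure D2:**
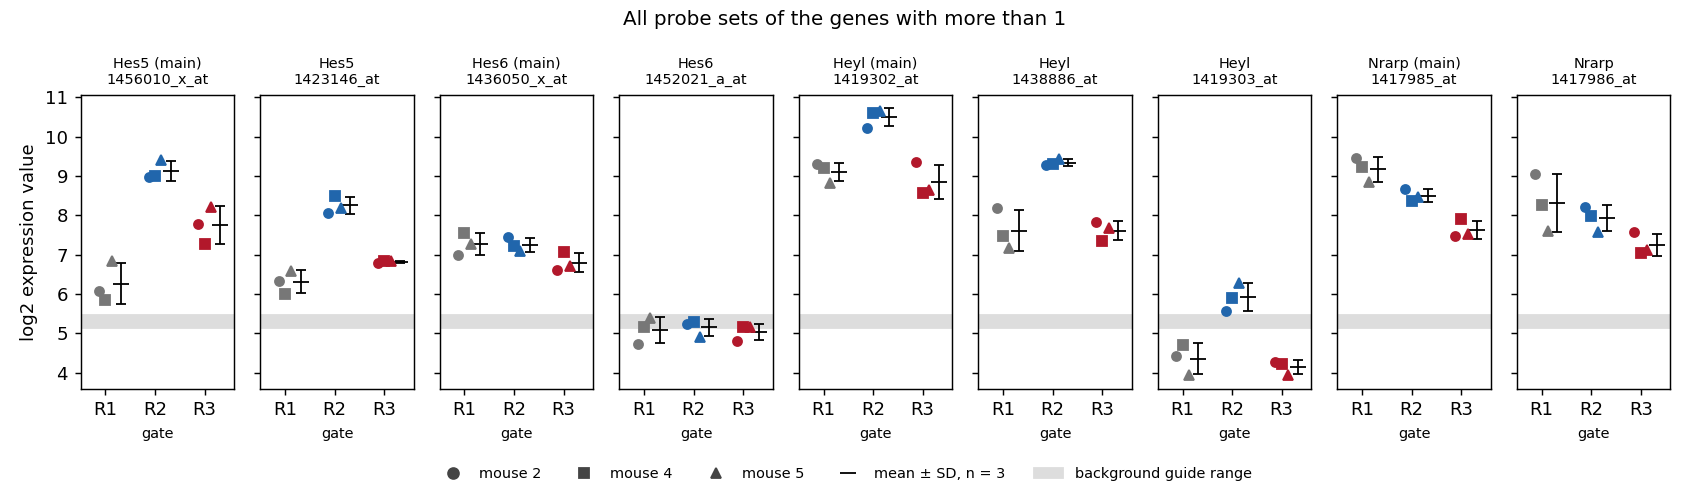
Log2 expression value of all probe sets of Hes5, Hes6, Heyl and Nrarp by gate, drawn as 1 mark per array with the mean ± SD (n = 3) and the background guide as a grey band. The 3 Heyl probe sets and both Hes5 ones peak in R2, both Nrarp ones have their lowest mean in R3, and the second Hes6 probe set lies in or near the band.

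Between R2 and R1, 5 of the 8 genes were higher (Hes1, Hes5, Hey1, Hey2 and Heyl) and Nrarp was lower in R2, a share of 75% called. The background over all genes was 13.1%, of which 6.89% higher and 6.16% lower. The gates had no overlapping arrays in 7 of the 8, and in 30.8% of all genes. The median log2 change of the 8 was 1.06, against -0.02 over all genes. With the mouse as a fixed block 4 were called, all higher. With 1 array left out the count was 4 to 6.

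Between R3 and R1, 3 of the 8 were higher (Hes5, Hey1 and Hey2) and Nrarp was lower in R3. The background over all genes was 18.7%, of which 7.90% higher and 10.8% lower. The gates had no overlapping arrays in 4 of the 8, and in 34.4% of all genes. The median change of the 8 was -0.20, against -0.01 over all genes. The count was 4 under every alternative tried.

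Between R3 and R2, the 2 papilla gates, 4 of the 8 were lower in R3 (Hes1, Hes5, Heyl and Nrarp) and Hey2 was higher. The background over all genes was 5.03%, of which 1.97% higher and 3.06% lower. The median change was -0.84, against -0.01. The arrays of R2 and R3 did not overlap for any of the 8, as for 22.7% of all genes. The count of 5 depended on single arrays: it was 1 (Heyl) without the R2 array of mouse 2 or the R3 array of mouse 2, 2 without the R2 array of mouse 4 or the R2 array of mouse 5, and 3 without the R3 array of mouse 4 or after quantile normalization again. The comparisons share gates pairwise, so their values for a gene are not independent of each other.

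**Figure D3:**
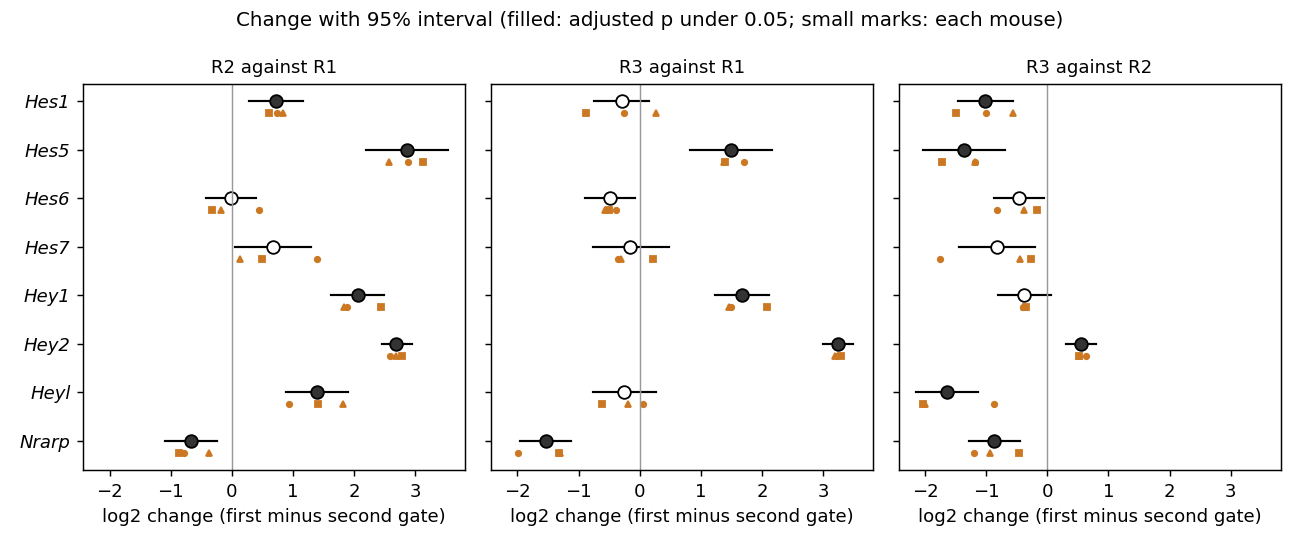
Log2 change of each gene (horizontal axis) for R2 against R1, R3 against R1 and R3 against R2, with its 95% interval; filled circles have a limma adjusted p under 0.05, and small marks below are the difference within each mouse. Between R3 and R2, Hey2 is the only gene to the right of 0, at 0.55, and Heyl lies farthest to the left, at -1.64.

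Markers of blood vessels moved with part of this pattern. Beside the marker counts given from here on, the share called over all genes was 13.1% in R2 against R1. It was 18.7% in R3 against R1 and 5.03% in R3 against R2. The endothelial list was higher in R2 than in R1 in 14 of 16 genes and lower in R3 than in R2 in 15 of 16. Its summed linear level (2 to the power of each value, added over the 16 genes) was 2669 to 3022 in R1, 7997 to 9604 in R2 and 2095 to 2284 in R3. Kdr, the VEGF receptor gene, averaged 7.08, 9.46 and 7.48, Pecam1, an adhesion gene of endothelium, 7.74, 9.52 and 6.67, and Cdh5, the cadherin of endothelial junctions, 7.39, 8.77 and 5.83 in R1, R2 and R3. No gene of the list was below the background guide on all arrays of R1 or R2, and 3 were in R3. Heyl, Hes1 and Hes5 shared the R2 peak, and the part of endothelial cells in those values was not tested.

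In R3 against R1, the endothelial list was lower in R3 in 8 of 16 genes and higher in 2. Hey1, Hey2 and Hes5 were 3.20-fold, 9.47-fold and 2.82-fold higher in R3. For Hes5 this was called with the main probe set and not with the other (limma adjusted p = 0.0798). Papilla markers, with the gate genes Prom1 and Sox2 among them, were higher in R3 in 18 of 18 genes. Their summed level was 12822 to 13668 in R1, 28779 to 29693 in R2 and 42983 to 47436 in R3. The part of endothelial or papilla cells in the Hey1, Hey2 and Hes5 values was not tested.

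The pericyte and smooth muscle list had a summed level of 9201 to 9709 in R1, 8732 to 9472 in R2 and 7689 to 8941 in R3, and 1 of 13 genes was below the guide throughout each gate. Against R1, R2 had 3 of its genes higher and 5 lower, and R3 had 2 higher and 6 lower. From R2 to R3, where Heyl fell, 0 were higher and 2 lower (5 lower at an unadjusted limma p under 0.05). The list includes Notch3, which is also among the receptors described below. Of its first genes, Rgs5 averaged 11.32, 8.97 and 8.89 in R1, R2 and R3, Cspg4 9.41, 9.24 and 8.85, and Pdgfrb 10.35, 10.33 and 10.08. The 3 genes higher in R2 than in R1 were the contractile genes Acta2 (10.75, 12.03 and 11.98) and Tagln (8.95, 9.96 and 9.96) and the adhesion gene Mcam (7.77, 8.48 and 8.27), named after their values were seen. Acta2 and Tagln were also the ones higher in R3. Other contractile genes of the list did not rise by mean. In R1, R2 and R3, Myh11 averaged 8.76, 7.65 and 7.05, Des 7.21, 6.64 and 6.26, and Cnn1 5.95, 5.66 and 5.76. These were likewise named after their values were seen. The part of pericytes and smooth muscle in the Heyl values was not tested.

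Schwann and glial markers rose in R3, with 8 of 9 genes higher than in R2 and a summed level of 1421 to 2005 in R1, 613 to 733 in R2 and 6673 to 7619 in R3. Mbp, a myelin gene, averaged 7.80, 5.92 and 11.95, Erbb3, the neuregulin receptor gene, 9.55, 7.08 and 10.08, and Sox10, a glial transcription factor gene, 6.79, 6.34 and 7.26. In R2, 3 of the 9 genes lay below the guide on every array, in R1 2 and in R3 none. Hey2 was the one effector higher in R3 than in R2. From R1 to R2, 4 of the 9 glial genes fell and none rose, and Hey2 rose 6.46-fold. The part of glial cells in either step of Hey2 was not tested.

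Markers of other cell types of skin were highest in R1, as Nrarp was. Keratinocyte markers were lower in R2 and in R3 than in R1 in 13 of 13 genes, leukocyte markers in 10 of 12, melanocyte markers in 5 and 6 of 7, and fibroblast markers in 6 of 10 in each gate. Skeletal muscle precursor markers were lower in 3 of 7 genes in R2 and in 5 in R3. From R2 to R3, where Nrarp fell further, keratinocyte, leukocyte and melanocyte markers had 0 called genes in limma (1, 4 and 0 at an unadjusted p under 0.05). Of the fibroblast markers 4 of 10 fell, and of the skeletal muscle precursor markers 1 of 7 (5 in each list at an unadjusted limma p under 0.05). The part of all these cells in the Nrarp values was not tested.

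**Figure D4:**
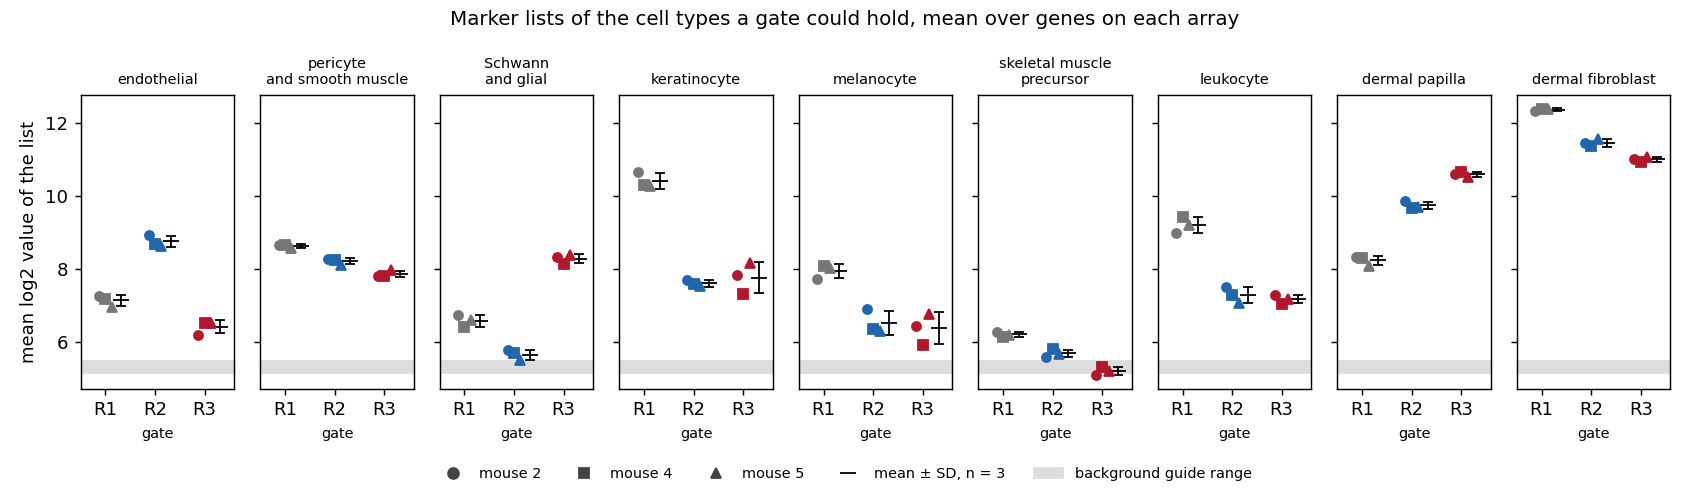
Mean log2 value over the genes of each marker list (vertical axis) on each array by gate, with mean ± SD (n = 3) and the background guide as a grey band. The endothelial list peaks in R2 (8.75 on average, against 7.13 in R1 and 6.41 in R3), the glial list in R3 (8.28) and the keratinocyte list in R1 (10.42).

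The other genes of the pathway were taken from 9 lists ordered by role. Of 66 listed genes 61 are described; the others are not analysed here. In R2 against R1, 13 of the 61 were higher and 4 lower (27.9% called, against 13.1% of all genes; median change 0.16). In R3 against R1, 9 were higher and 9 lower (29.5%, against 18.7%; median 0.07), and in R3 against R2, 1 was higher and 8 lower (14.8%, against 5.03%; median -0.07). The last count of 9 was 5 without the R2 array of mouse 2, the R2 array of mouse 4, the R3 array of mouse 2 or the R3 array of mouse 4. The lists were chosen with earlier results of these data known.

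Among ligands, Dll1 and Jag1 were higher in both papilla gates than in R1. Dll1, a Delta-like ligand gene, read 8.81, 8.46 and 7.94 in R1, 11.24, 11.56 and 11.25 in R2, and 10.23, 10.05 and 10.05 in R3, and its gates did not overlap. It was 7.70-fold higher in R2 and 3.26-fold higher in R3 than in R1, and fell 2.36-fold from R2 to R3 (limma adjusted p = 0.00815), the same order of gates as Hes5. Jag1 averaged 10.21, 11.59 and 11.66 in R1, R2 and R3 and did not differ past the threshold between the papilla gates (difference 0.07, adjusted p = 0.847). Dll4, the ligand of arterial endothelium, was called higher in R2 than in R1 and lower in R3 than in R2, averaging 5.09, 5.81 and 5.14. As 0 arrays of R1 and 1 of R3 were over the guide, no fold is given. Its fall in R3 was not called without the R2 array of mouse 2, the R2 array of mouse 5 or the R3 array of mouse 4 (adjusted p 0.0625 to 0.0805, in a range of 0.0132 to 0.0805).

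The remaining ligands fell or did not pass the test. Dlk1, a non-canonical ligand of preadipocytes and fetal mesenchyme, averaged 10.52, 9.15 and 8.30 and was called lower at each step, as Nrarp was; its R3 to R2 call (adjusted p = 0.0464) was kept on leaving out the R3 array of mouse 5 and lost on leaving out any other array (adjusted p 0.0662 to 0.142, in a range of 0.0250 to 0.142). Jag2 was 2.11-fold lower in R3 than in R1. Dner read 7.82, 8.44 and 7.81 in R1, 9.22, 9.39 and 6.36 in R2, and 2.96, 3.24 and 6.82 in R3, so the arrays of mouse 5 stood apart from those of the other mice in R2 and R3. Its R3 to R1 call (adjusted p = 0.0356) was lost without any single R1 array or without the R3 array of mouse 2 or the R3 array of mouse 4 (adjusted p 0.0723 to 0.120, in a range of 0.00402 to 0.120). Its R3 to R2 difference of -3.99, not called (adjusted p = 0.0626, in a range of 0.00819 to 0.198), was called without the R2 array of mouse 5 or the R3 array of mouse 5. Dll3 averaged 4.65, 4.57 and 4.65, below the guide, and Dlk2 6.61, 6.56 and 6.92 with no call.

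All 4 receptors had their highest mean in R2. Notch1 was 2.15-fold higher in R2 than in R1 (limma adjusted p = 0.00125) and fell 1.73-fold from R2 to R3 (adjusted p = 0.0156). The latter call was lost without the R2 array of mouse 4 or the R3 array of mouse 2 (adjusted p 0.0618 and 0.0651, in a range of 0.00584 to 0.0651), and R3 against R1 was called without the R1 array of mouse 2 (adjusted p = 0.0496, in a range of 0.0496 to 0.419). Notch4, known from endothelium, read 4.98, 5.16 and 4.90 in R1, 7.44, 7.30 and 6.99 in R2, and 5.01, 5.43 and 5.86 in R3, with 0 arrays of R1 and 2 of R3 over the guide. It was higher in R2 than in R1 (adjusted p = 0.000167), with no fold given because R1 was not above background, and 3.50-fold lower in R3 than in R2. Notch3, the receptor of mural cells, averaged 8.22, 8.69 and 8.07 and was called only between R3 and R2 (1.53-fold lower in R3, adjusted p = 0.0412), a call kept on leaving out the R1 array of mouse 2 and lost on leaving out any other array (adjusted p 0.0517 to 0.149, in a range of 0.0232 to 0.149). Notch2 averaged 11.90, 11.97 and 11.53 with no call.

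None of the 6 measured genes of the nuclear complex, RBPJ's own gene included, was called by limma in any of the 3 comparisons; at an unadjusted p under 0.05, 2 were higher and 1 lower in each papilla gate against R1, and 0 changed between R3 and R2. The nuclear gene Ep300 passed in R2 against R1 without the R3 array of mouse 2 or the R3 array of mouse 5, and in R3 against R1 without the R3 array of mouse 2. Of 8 proteases and their subunits, Aph1b, a gamma-secretase subunit gene, was 1.66-fold higher in R2 and 1.67-fold higher in R3 than in R1, while Psenen, another subunit gene, was 1.59-fold lower in R3 than in R1.

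Among the 5 glycosyltransferases, 2 were lower in R3 than in R1 (40.0%, against 18.7% of all genes called). In R3 against R2, 1 was lower (20.0%, against 5.03%). Of the Fringe genes, which tune receptors for their ligands, Lfng was 1.63-fold lower in R3 than in R1 (limma adjusted p = 0.0322). Mfng fell from R2 to R3 (adjusted p = 0.0221), averaging 6.05 in R2 and 5.02 in R3, where no array was over the guide, so no fold is given. Rfng, the remaining Fringe gene, averaged 9.26, 8.79 and 9.24 in R1, R2 and R3 with no call. Pofut1, which adds fucose to Notch, was 1.59-fold lower in R3 than in R1 (adjusted p = 0.0495). Each of these 3 calls was lost in 4 to 6 of the 9 fits that left out 1 array: Lfng without any R1 array, the R3 array of mouse 2 or the R3 array of mouse 4, with adjusted p 0.0515 to 0.106. Mfng lost it without the R2 array of mouse 2, the R2 array of mouse 4, the R3 array of mouse 2 or the R3 array of mouse 4, with adjusted p 0.0798 to 0.0842. Pofut1 lost it without any R1 array, the R2 array of mouse 2, the R3 array of mouse 2 or the R3 array of mouse 5, with adjusted p 0.0684 to 0.143. Over all alternatives the adjusted p of Lfng ran from 0.0120 to 0.106, of Mfng from 0.00895 to 0.0842 and of Pofut1 from 0.0249 to 0.379.

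Of 14 genes of Notch trafficking and turnover, 3 were higher and 1 lower in R2 than in R1, and 2 were higher and 1 lower in R3 than in R1; none was called between R3 and R2 in limma (1 at an unadjusted p under 0.05). Of 6 Groucho genes, 2 were higher and 1 lower in each papilla gate than in R1, and 1 was higher in R3 than in R2. Dtx1, a Deltex gene that is itself a Notch target, averaged 4.83, 6.68 and 6.30 in R1, R2 and R3. It was higher in R2 and in R3 than in R1 (limma adjusted p = 0.000137 and 0.000374), and since no R1 array was over the guide, no fold is given. Fbxw7, which marks the cleaved receptor for destruction, was 1.96-fold and 2.22-fold higher, and Neurl1b, a ubiquitin ligase for ligands, 3.67-fold and 3.23-fold lower. The Groucho gene Tle2 rose stepwise like Hey2: it was 1.71-fold higher in R2 than in R1 and 2.09-fold higher in R3 than in R2 (adjusted p = 0.00506). Tle4 was 1.85-fold and 2.50-fold higher in R2 and R3 than in R1, and Tle5, a short family member that can oppose the others, 1.63-fold and 1.82-fold lower. The R2 to R1 call of Tle5 (adjusted p = 0.0158) was lost without the R1 array of mouse 2, the R1 array of mouse 4 or the R2 array of mouse 5 (adjusted p 0.0544 to 0.0555, in a range of 0.00775 to 0.0555).

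Corepressor genes of the CtBP pair went apart. Ctbp2 was 2.33-fold higher in R2 and 2.25-fold higher in R3 than in R1, and Ctbp1 was 1.38-fold and 1.49-fold lower (limma adjusted p = 0.0352 and 0.00943). The R2 to R1 call of Ctbp1 was lost without any single R1 or R2 array and without the R3 array of mouse 4 (adjusted p 0.0531 to 0.113, in a range of 0.0207 to 0.113). Bhlhe40, a related bHLH-Orange repressor not known as a classical Notch target, averaged 9.80, 11.05 and 10.30 and peaked in R2. It was 2.38-fold higher in R2 than in R1 and fell 1.69-fold from R2 to R3 (adjusted p = 0.00970). Its 1.41-fold rise from R1 to R3 (adjusted p = 0.0284) was lost without any R1 array, the R3 array of mouse 4 or the R3 array of mouse 5 (adjusted p 0.0568 to 0.0823, in a range of 0.0121 to 0.0823).

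**Figure D5:**
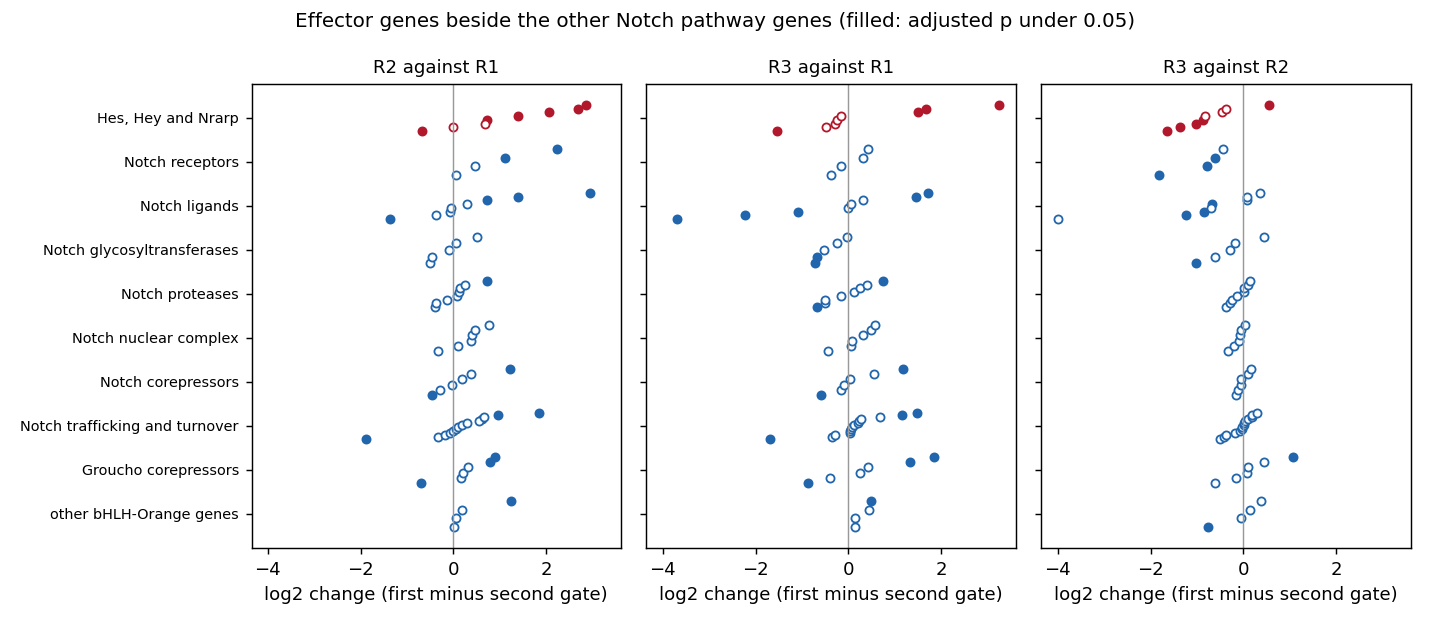
Log2 change of the 8 effector genes (red) and of the other measured Notch pathway genes by role (blue) in the 3 comparisons; each circle is 1 gene and filled ones have a limma adjusted p under 0.05. In R3 against R2 the called receptors and ligands lie to the left of 0, and of the genes to the right only Hey2 and Tle2 are filled.

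Over the 9 arrays, the effector genes differed in how closely they ran together. The Pearson correlation of log2 values was 0.92 between Hey1 and Hey2, 0.89 between Hes5 and Hey1 and 0.87 between Hes1 and Heyl. It was 0.21 between Hey2 and Heyl and -0.86 between Hey2 and Nrarp. These values are a description over arrays that share mice and gates, so differences between gates enter them.

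Among 8861 other named genes brighter than the median gene, those most like each effector were ranked by the same measure over the 9 arrays. Hey2 was closest to Ncald and Rspo1 (0.996 each), Prss12 (0.993) and Daam2 (0.992); Rspo1, a secreted enhancer of Wnt signalling, averaged 9.53, 11.22 and 11.64 in R1, R2 and R3. Hey1 was closest to Dcun1d4 (0.991), Klf2 (0.987), Ypel2 (0.985) and Cramp1l (0.982). Klf2, a transcription factor gene known from endothelium under flow, averaged 8.67, 9.74 and 9.66. Heyl was closest to Dhrs3 (0.967), Pard6g (0.966), Nuak1 (0.962) and Tssc4 (0.949); Dhrs3, a retinaldehyde reductase gene, averaged 8.43, 9.90 and 8.48.

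The Hes genes had other neighbours. Hes5 was closest to Pnrc2 (0.980), Ptgfrn (0.971), Plcb1 (0.969) and Rsrp1 (0.968), and Hes1 to Pdxp (0.988), Nop56 (0.960), Pxn (0.959) and Hoxb5 (0.957). Hes6 was closest to Twsg1 (0.978), a BMP modulator gene, then Casp2 (0.963), Mtln (0.942) and Nsa2 (0.939), and the dim Hes7 to Ogfod1 (0.991), Mrpl34 (0.960), Cwc27 (0.949) and Cetn3 (0.927). Hes7 entered this ranking through R2, the only gate where all its arrays were over the guide. Its R2 array of mouse 2 read 6.82 and the rest 5.07 to 5.81, so that array weighs heavily in its correlations. Nrarp was closest to Ccng1 (0.978), Thy1 (0.975), Cthrc1 (0.973) and Mfap2 (0.971). Thy1 and Mfap2 are known from dermal fibroblasts and their matrix, and Thy1 averaged 12.31, 11.70 and 10.89. The neighbours were not tested.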

How the data were processed

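The authors deposited log2 expression values per probe set of a 1-colour array (9 arrays). The submitters' processing notes name RMA, which corrects background, equalizes the distribution of arrays and summarizes probes. Its version and software, and whether all arrays went through it jointly, are not given in the sources read. Per the labels' protocols, RNA was amplified with the WT-Ovation Pico system. RMA values carry no detection call, so 44 olfactory receptor probe sets gave a guide to background.

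Of 45101 probe sets, 34945 had 1 gene symbol in the platform annotation, 932 had several, 9160 had none and 64 were controls; 34741 were found in the RefSeq gene table (GRCm38.p6, names only). Groups and mouse numbers came from the labels. Gates were compared with limma 3.58.1 (moderated linear model, R 4.3.3; 1 coefficient per gate over 9 arrays, no block, no filter, 9.49 degrees of freedom), with Benjamini-Hochberg adjustment over 18193 genes, or over all probe sets with 1 symbol where probe sets were tested singly. Same-numbered arrays come from 1 mouse and are paired; deviations from gate means correlated at 0.00675 to 0.177 within a mouse and -0.157 to 0.0410 between mice.

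The members and lists were chosen with earlier results of these data known. Named were the 8 genes, the gate genes, and all receptors and ligands. Also named were up to 3 called genes of each other pathway list with the lowest p. The 4 most correlated genes of each member and the first 3 measured genes of a marker list were named too. Ep300, Acta2, Tagln, Mcam, Myh11, Des, Cnn1 and Rfng were named after their values were seen. Simulated R3 against R2 data had 18193 genes with 200 changed and no effect of the mouse. The test recovered 16% of those set at 1.5-fold, 80% at 2-fold, 98% at 4-fold and 100% at 8-fold. It called 155 genes, 8 of them unchanged. In the real data 915 genes were called, so these rates need not hold there. Python 3.11.15, pandas 2.3.3 and matplotlib 3.10.9 made tables and plots.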

Additional observations from a re-analysis of the deposited data

How the results depend on the processing

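Fits were repeated leaving out each array, on the 6 arrays of a comparison alone, blocked by mouse (fixed or random), after median centring, after quantile normalization again, with probe sets averaged or tested singly, with filters on dim genes, and with a trend and robust variance. Hes7 lay under the median gene and had no value with that filter. Over the 24 changes of the 8 genes and 453 refits, 411 kept direction and side of the threshold, 39 kept the direction and missed the threshold, and 3 turned the direction: Hes6 in R2 against R1, not called, was 0.12 without R1 replicate 4 (the array of mouse 4), 0.06 without R2 replicate 5 (-0.16 to 0.12 over the fits leaving out 1 array) and 0.01 with the mean of all probe sets. With 1 array left out, the count of called effector genes in R3 against R2 ran from 1 to 5 and that of the other pathway genes from 5 to 10. After quantile normalization again the former was 3. In the replicate block with the mouse as a fixed term, 4 effector genes were called in R2 against R1, 4 in R3 against R1 and 5 in R3 against R2, against 6, 4 and 5 with a random one; apart from Hes1 and Nrarp in R2 against R1 with the fixed term (adjusted p = 0.0665 and 0.0521), the block changed no call of the 8 genes. Fits without an array of a gate leave 2 arrays in it. Some calls were lost with no array left out, such as those of Hes1 and Nrarp in R2 against R1 with the fixed term. Why the lost calls were lost was not tested.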
